A study of Mus musculus with 6 samples.

Results

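The Schlafen family was followed here through infarcted mouse hearts that had received miR-19a/19b mimics or a control mimic. The genes were taken by name, as Slfn1, Slfn2, Slfn3, Slfn4, Slfn5, Slfn8 and Slfn9, with symbols that were absent or below a mean normalized count of 1 to be skipped. All 7 were present, none was skipped, and they are 7 of the 26012 genes in the expression file and of the 21126 genes tested. RNA came from fresh ventricular tissue of 6 male C57BL/6 mice, operated on at 8 weeks of age. In every mouse the left anterior descending coronary artery was ligated to give a myocardial infarction (MI), and 10 μg of a microRNA mimic, a synthetic duplex that stands in for the mature microRNA, was injected into the heart. The mice received either control mimic (3 hearts) or miR-19a and miR-19b mimics (3 hearts), and tissue was taken 4 days after MI. All 6 hearts were therefore infarcted and injected, and no uninjured or uninjected heart is part of the comparison. The samples are whole ventricular tissue, so infarcted and remote muscle and every infiltrating cell type are measured together.

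Schlafen genes (from the German for "to sleep") were named for the growth arrest that the first of them caused in thymocytes. The mouse family has short members (Slfn1 and Slfn2), intermediate members (Slfn3 and Slfn4) and long members (Slfn5, Slfn8 and Slfn9), and the long ones add a helicase-like domain to the core that all share. That core resembles nucleases, and family members are known to bind or cut transfer RNA and so to limit protein synthesis. Several Schlafen genes are induced by type I interferon, and the family is studied mainly in T cells, monocytes and macrophages, the leukocytes that enter the heart after MI.

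All 7 Schlafen genes had a lower mean in miR-19a/19b mimic injected hearts than in control mimic hearts, but by very different amounts. Slfn4 was 2.52-fold lower, Slfn1 1.93-fold and Slfn8 1.84-fold, and in these 3 genes every miR-19a/19b mimic heart lay below every control heart. Slfn2, Slfn3, Slfn5 and Slfn9 were between 1.17-fold and 1.34-fold lower, and their groups overlapped. Over all genes tested, every miR-19a/19b mimic heart lay below every control heart in 5.3% of genes. No member passed an adjusted p of 0.05 in limma, where 0 of the 21126 genes did (0% of those tested) and 848 had an unadjusted p under 0.05. At that unadjusted threshold 4 of the 7 members were lower (Slfn1, Slfn4, Slfn8 and Slfn9), beside 555 lower genes, or 2.63% of all genes tested. The median log2 fold change of the 7 members was -0.42, and that of all genes tested was 0.00. A fold change here is miR-19a/19b mimic against control mimic on log2(normalized count + 1), where a normalized count is a gene's reads after division by the size factor of the library.

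**Figure D1:**
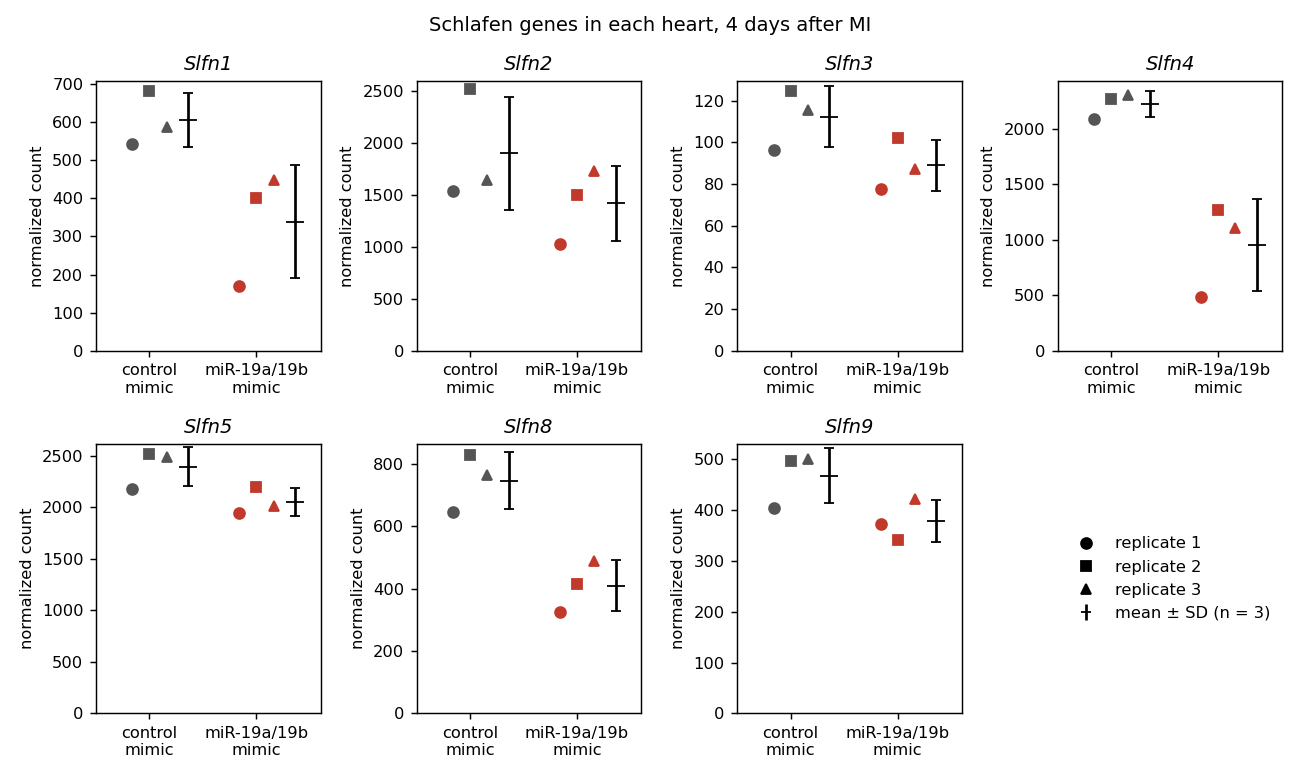
Normalized count of each Schlafen member (vertical axis, from 0) in 3 control mimic hearts (grey) and 3 miR-19a/19b mimic hearts (red), with the marker shape giving the replicate number and the bar the mean ± SD. The red points of Slfn1, Slfn4 and Slfn8 lie below all grey points, and those of the other 4 genes overlap the grey points.

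The libraries hold between 19398196 and 23645308 reads on genes, and the members rest on between 72 reads (Slfn3 in its lowest heart) and 2666 reads (Slfn5 in its highest heart). Labelled replicates are separate hearts. The defining genes of cardiomyocytes, such as Myh6, were abundant in every library. In miR-19a/19b mimic replicate 1, 8 skeletal muscle genes summed to 3039 normalized counts against 29.28 to 71.75 in the other 5 hearts, so each member was also fitted without that heart. The log2 fold changes were then -0.51 for Slfn1, -0.20 for Slfn2, -0.24 for Slfn3, -0.91 for Slfn4, -0.18 for Slfn5, -0.72 for Slfn8 and -0.30 for Slfn9. Without it Slfn1, Slfn4 and Slfn8 were lower at an unadjusted p under 0.05 and Slfn9 was not. DESeq2 on the recovered reads placed 28 genes lower at an adjusted p under 0.05, or 0.198% of the genes it tested, and edgeR's exact test also placed 28, or 0.133%. In both tests 2 of these genes were Schlafen members, Slfn4 and Slfn8.

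The 7 genes lie side by side on chromosome 11 (GRCm38), from 82951349 to 83215154, a span of 264 kb. In order along the chromosome they are Slfn5 on the + strand, Slfn9 and Slfn8 on the - strand, and Slfn2, Slfn1, Slfn4 and Slfn3 on the + strand. The pseudogene Slfn10-ps stands between Slfn8 and Slfn2. In GENCODE M21 the longest open reading frames code for 337 residues in Slfn1, 378 in Slfn2, 602 in Slfn4, 640 in Slfn3, 884 in Slfn5 and 910 in each of Slfn8 and Slfn9. Among the 21 pairs of members, the coding sequences closest to each other were those of Slfn3 and Slfn4, with 93.6% identity over 1778 aligned bases, and of Slfn8 and Slfn9, with 92.7% over 2733. The next closest pair, Slfn1 and Slfn4, shared 80.4%. The family therefore holds 2 pairs of near copies, and in each pair the groups were separate for one member (Slfn4, Slfn8) and overlapped for the other (Slfn3, Slfn9).

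Slfn4 (ENSMUSG00000000204, chromosome 11 from 83175186 to 83190221) is an intermediate member that is known from monocytes and macrophages, where it is switched on by interferon and by Toll-like receptor ligands. Its normalized counts were 2087, 2270 and 2303 after control mimic and 483, 1268 and 1104 after miR-19a/19b mimics. The highest miR-19a/19b mimic heart stood at 60.8% of the lowest control heart, and miR-19a/19b mimic replicate 1 was the lowest by a wide margin. The means were 2220 ± 116.5 and 952 ± 414 (SD, n = 3 hearts per group). The log2 fold change was -1.34 (standard error, SE, 0.31, limma adjusted p = 0.806), and Slfn4 ranked 47th of all tested genes by p-value. On the recovered reads its adjusted p was 0.023 from DESeq2 and 0.042 from edgeR's exact test.

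Slfn3 (ENSMUSG00000018986, chromosome 11 from 83191330 to 83215154), which starts next to the end of Slfn4 on the same strand, is the near copy of Slfn4 and was the member with the fewest reads. It had 96.2, 125 and 116 normalized counts after control mimic and 77.5, 102 and 87.3 after miR-19a/19b mimics. The ranges overlapped, since miR-19a/19b mimic replicate 2 exceeded control replicate 1. Its log2 fold change was -0.33 (SE 0.18, limma adjusted p = 1). The log2 ratio of Slfn3 to Slfn4 was -4.30 ± 0.13 after control mimic and -3.30 ± 0.58 after miR-19a/19b mimics, with no overlap between the groups (two-sided exact permutation test, p = 0.1, the lowest possible with 3 hearts against 3).

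Slfn8 (ENSMUSG00000035208, chromosome 11 from 83002158 to 83020810) is a long member. Its normalized counts were 645, 828 and 764 after control mimic and 325, 415 and 487 after miR-19a/19b mimics. Every miR-19a/19b mimic heart was under every control heart, and the highest of them stood at 75.4% of the lowest control heart. The means were 746 ± 92.5 and 409 ± 81.1 (SD, n = 3 hearts per group), and the spread within each group was much smaller than the distance between them. The log2 fold change of -0.88 (SE 0.16, limma adjusted p = 0.547) ranked 18th of all tested genes by p-value, the best rank in the family. Its adjusted p was 0.00691 from DESeq2 and 0.00481 from edgeR's exact test.

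Slfn9 (ENSMUSG00000069793, chromosome 11 from 82979629 to 82991830) is a long member as well, with the same number of residues as Slfn8. It had 405, 496 and 500 normalized counts after control mimic and 372, 340 and 421 after miR-19a/19b mimics. Control replicate 1 lay within the range of the miR-19a/19b mimic hearts, so the groups overlapped in spite of a difference in their means. The log2 fold change was -0.30 (SE 0.13, limma adjusted p = 1). The unadjusted p from limma was 0.0478, and it was above 0.05 in 9 of 15 alternatives. The log2 ratio of Slfn8 to Slfn9 was 0.67 ± 0.06 after control mimic and 0.10 ± 0.26 after miR-19a/19b mimics, with no overlap (exact permutation test, two-sided, p = 0.1).

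Over the 21 pairs of members, 12 had log2 ratios that did not overlap between the groups, and 9 overlapped. The pairs share members and are not independent, and the share among pairs of other genes was not counted. With p-values adjusted over the 21 pairs, the smallest was 0.175 in the exact permutation test. That test cannot go below 0.1 before adjustment with 3 hearts against 3, so it could not have passed any pair. The largest difference was that of Slfn4 to Slfn5, whose log2 ratio was -0.11 ± 0.04 after control mimic and -1.22 ± 0.68 after miR-19a/19b mimics. The log2 ratio of Slfn1 to Slfn8 was -0.30 ± 0.07 and -0.37 ± 0.49, with overlapping groups and a difference of -0.07 (SE 0.29).

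Slfn1 (ENSMUSG00000078763, chromosome 11 from 83116849 to 83122670), the founding short member whose forced expression stops thymocyte growth, had 544, 682 and 588 normalized counts in control mimic hearts. In miR-19a/19b mimic hearts it had 169, 400 and 448. The groups were separate, with the highest miR-19a/19b mimic heart at 82.3% of the lowest control heart, and replicate 1 stood well below the other 2 miR-19a/19b mimic hearts. The log2 fold change was -0.95 (SE 0.32, limma adjusted p = 1) and was -0.51 without that replicate.

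Slfn2 (ENSMUSG00000072620, chromosome 11 from 83065112 to 83070678) is the short member that holds T cells and monocytes in quiescence. It had 1533, 2520 and 1641 normalized counts after control mimic and 1027, 1494 and 1733 after miR-19a/19b mimics. Control replicate 2 stood far above the other 5 hearts, and miR-19a/19b mimic replicate 3 exceeded 2 of the 3 control hearts. The log2 fold change was -0.42 (SE 0.23, limma adjusted p = 1), and without control replicate 2 it was -0.20.

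Slfn5 (ENSMUSG00000054404, chromosome 11 from 82951349 to 82962941), a long nuclear member found in many tissues, had the most reads of the family. Its normalized counts were 2174, 2516 and 2491 after control mimic and 1941, 2200 and 2012 after miR-19a/19b mimics. Only control replicate 1 lay within the range of the miR-19a/19b mimic hearts, and the whole family's smallest relative change was here. The means were 2394 ± 190.5 and 2051 ± 134 (SD, n = 3 hearts per group), with a log2 fold change of -0.22 (SE 0.11, limma adjusted p = 1).

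Further genes of the family and 1 antisense gene were read out. Slfn10-ps, the pseudogene beside Slfn8, had 121, 115 and 90.6 normalized counts after control mimic and 68.9, 73.2 and 77.8 after miR-19a/19b mimics, with no overlap. Its log2 fold change was -0.55 (SE 0.18, limma adjusted p = 1). Slfnl1, a distant relative on chromosome 4, had between 0 and 5.19 normalized counts, and Slfn5os, which overlaps Slfn5 on the other strand, between 0 and 9.95, too few to compare. Slfn14 was not analysed here.

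Near copies can exchange reads. Of all 150-base windows (the length of the reads) in the longest GENCODE M21 transcript, 0% were found exactly in a transcript of another gene for Slfn1, Slfn2, Slfn4 and Slfn8. The share was 1.6% for Slfn3, with the pseudogene Gm11427, and 1.55% for Slfn9, with Slfn10-ps. It was 5.80% for Slfn5, with Slfn5os. In windows of 75 bases, the shares were between 0% (Slfn1) and 8.81% (Slfn5), and 3.24% for Slfn4 and 7.52% for Slfn8. Since the counting is not stated to use strand, reads of Slfn5 and Slfn5os cannot be told apart, and Slfn5os had at most 9.95 normalized counts in a heart, where Slfn5 had at least 1941.

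Levels of different genes are compared per kb of gene length. In control mimic hearts Slfn2 had the highest level, 1141 ± 325 normalized counts per kb, followed by Slfn4 with 559 ± 29.4 and Slfn5 with 541 ± 43.0. Slfn1 (324 ± 38.0), Slfn8 (182 ± 22.6), Slfn9 (98.8 ± 11.4) and Slfn3 (61.8 ± 8.10) followed (SD, n = 3). Of the 6 neighbours in this order, Slfn4 and Slfn5 were the one pair whose values overlapped. In miR-19a/19b mimic hearts the order was Slfn2 (852 ± 216), Slfn5 (463 ± 30.3), Slfn4 (240 ± 104), Slfn1 (182 ± 80.0), Slfn8 (100 ± 19.8), Slfn9 (80.0 ± 8.60) and Slfn3 (49.0 ± 6.82). Slfn4 had thus changed places with Slfn5, and the values overlapped between Slfn4 and Slfn1, between Slfn1 and Slfn8, and between Slfn8 and Slfn9. Within each of the 3 hearts the order of these neighbours was still the same.

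Summed over the family, the level was 2526, 3397 and 2801 normalized counts per kb after control mimic and 1469, 2159 and 2270 after miR-19a/19b mimics. Slfn4 made up 16.8% to 20.8% of that sum after control mimic and 8.28% to 14.8% after miR-19a/19b mimics, with no overlap (exact permutation test, two-sided, p = 0.1). The shares of Slfn8 and of Slfn1 were also lower without overlap, with means of 6.29% and 5.12% for Slfn8 and of 11.2% and 8.90% for Slfn1. The shares of Slfn2, Slfn3, Slfn5 and Slfn9 overlapped between the groups. The family sum was thus smaller with miR-19a/19b mimics, and Slfn1, Slfn4 and Slfn8 made up less of it.

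**Figure D2:**
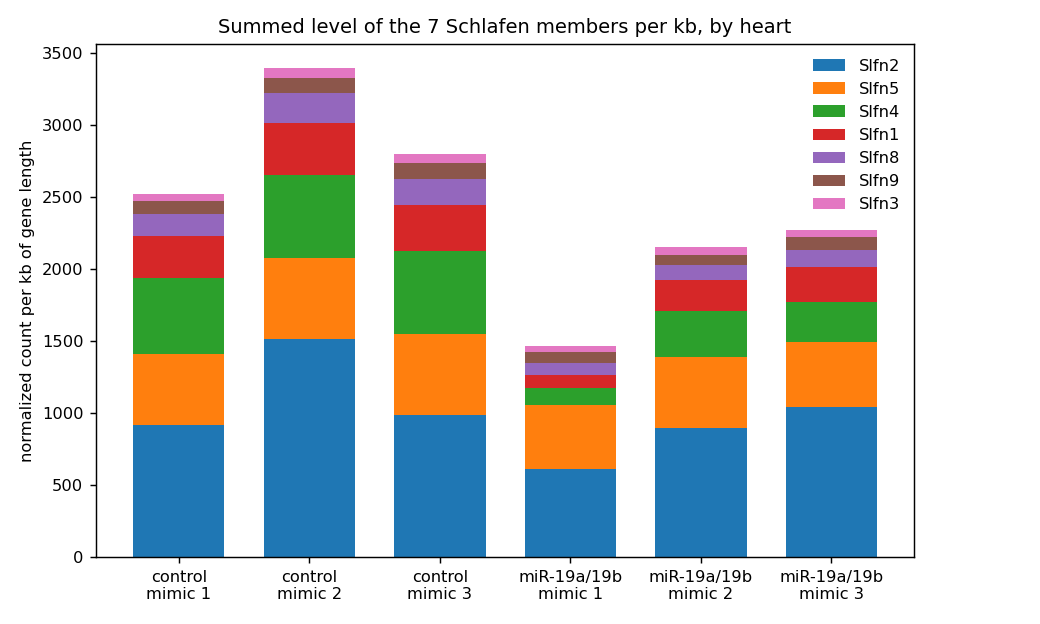
Normalized count per kb of gene length (vertical axis) summed over the 7 Schlafen members in each heart, with 1 colour per gene. The 3 miR-19a/19b mimic bars end between 1469 and 2270 and the 3 control bars between 2526 and 3397, and the Slfn4 section is smallest in miR-19a/19b mimic replicate 1.

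The hearts differed among themselves. In miR-19a/19b mimic replicate 1 all 7 members were below every control heart, and 6 of the 7 had their lowest value there, the exception being Slfn9. In replicates 2 and 3, 5 of the 7 were below every control heart. The share of all genes below every control heart in a single heart was not counted. The 5.3% given above is for all 3 miR-19a/19b mimic hearts at once, so these counts have no background. The median of the members against the control mean was -0.85 on the log2 scale in replicate 1, -0.45 in replicate 2 and -0.35 in replicate 3. In control mimic hearts, 5 of the 7 members were highest in replicate 2 and 2 in replicate 3.

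The sequences around the start sites of the members were read next. RefSeq (GRCm38.p6) gives a window from 250 bases before to 50 bases after the start for all 7 members. It was searched on both strands for the core of the interferon-stimulated response element (ISRE), which is GAAA, 2 bases of any kind and GAAA again, and which interferon-activated transcription factors bind, and for the gamma-activated sequence TTCNNNGAA. In the members' windows no match of one motif overlapped the other. The ISRE core was found in the windows of Slfn5, Slfn8 and Slfn9 and not in those of Slfn1, Slfn2, Slfn3 and Slfn4. Only exact matches were counted, so an element with a differing letter, or one outside the window, would be missed. Of all 32851 windows of this length, 3.44% held it. The gamma-activated sequence was in none of the members' windows and in 8.30% of all windows. Slfn8 and Slfn9 carry the same 10 letters, 48 and 45 bases before the start (136 bases from another annotated start of Slfn8), and Slfn5 carries other letters 155 bases before it. These 3 stretches are shown to compare the matches, which are in capitals, at chr11:83020839-83020868 (- strand) for Slfn8, chr11:82991856-82991885 (- strand) for Slfn9 and chr11:82951937-82951966 (+ strand) for Slfn5.
Slfn8: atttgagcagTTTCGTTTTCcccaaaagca
Slfn9: atccgagcagTTTCGTTTTCccaaaaacaa
Slfn5: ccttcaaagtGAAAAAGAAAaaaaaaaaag

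The whole windows of the Slfn8 and Slfn9 pair, chr11:83020761-83021060 and chr11:82991781-82992080, both on the - strand, were 86.2% identical over 289 aligned bases. They are shown, with the match in capitals, because these near copies share the match while Slfn8 was 1.84-fold and Slfn9 1.23-fold lower.
Slfn8: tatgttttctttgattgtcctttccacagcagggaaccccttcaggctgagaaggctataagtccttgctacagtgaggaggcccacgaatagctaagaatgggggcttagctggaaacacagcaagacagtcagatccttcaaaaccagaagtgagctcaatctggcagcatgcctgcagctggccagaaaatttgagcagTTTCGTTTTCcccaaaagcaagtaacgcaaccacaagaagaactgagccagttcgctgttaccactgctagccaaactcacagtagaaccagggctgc
Slfn9: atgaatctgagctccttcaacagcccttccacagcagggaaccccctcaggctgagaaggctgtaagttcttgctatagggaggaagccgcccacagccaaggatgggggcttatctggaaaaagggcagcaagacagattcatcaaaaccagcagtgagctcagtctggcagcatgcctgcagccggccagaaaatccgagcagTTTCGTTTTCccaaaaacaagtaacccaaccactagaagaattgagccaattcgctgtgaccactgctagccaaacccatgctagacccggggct

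The windows of Slfn4 and its near copy Slfn3, chr11:83174936-83175235 and chr11:83191080-83191379 on the + strand, hold no exact match of either motif. No letter is therefore in capitals. They belong to the member with the largest difference and to its closest relative.
Slfn4: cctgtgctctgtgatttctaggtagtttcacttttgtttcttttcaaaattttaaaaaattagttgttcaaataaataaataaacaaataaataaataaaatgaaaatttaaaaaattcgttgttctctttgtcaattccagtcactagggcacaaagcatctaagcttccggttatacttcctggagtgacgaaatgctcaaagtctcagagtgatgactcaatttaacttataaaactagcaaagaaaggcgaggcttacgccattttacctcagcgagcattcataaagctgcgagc
Slfn3: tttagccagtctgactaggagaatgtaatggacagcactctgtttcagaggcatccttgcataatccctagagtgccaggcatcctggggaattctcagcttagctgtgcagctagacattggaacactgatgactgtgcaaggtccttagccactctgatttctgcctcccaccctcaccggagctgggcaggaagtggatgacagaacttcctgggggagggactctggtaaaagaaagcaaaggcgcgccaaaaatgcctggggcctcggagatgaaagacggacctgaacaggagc

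Matches to miR-19 itself were searched in the longest annotated 3' UTR of each member in GENCODE M21. The mature sequences are those of RefSeq, with the seed (bases 2 to 8) in capitals, and miR-19a and miR-19b share it.
miR-19a-3p: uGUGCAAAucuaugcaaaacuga
miR-19b-3p: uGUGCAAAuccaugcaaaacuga

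A 7-mer match was found once in Slfn5 and once in Slfn9, and in none of Slfn1, Slfn2, Slfn3, Slfn4 and Slfn8. The match in Slfn9 pairs with the whole seed, bases 2 to 8. That in Slfn5 pairs with bases 2 to 7 only and has an A opposite base 1. Among the 15867 tested genes with a 3' UTR, 19.3% held a 7-mer match of either kind or an 8-mer match. The match in Slfn5 begins 2540 bases into a 3' UTR of 3136 bases, at chr11:82964233-82964261 (+ strand), and that in Slfn9 begins 2453 bases into a 3' UTR of 2786 bases, at chr11:82978706-82978734 (- strand). Both lie beyond the gene end that the expression file gives for these genes. The matches are in capitals.
Slfn5: gcacagacagcTTGCACAcatgtaaaaag
Slfn9: agctgagggggTTTGCACcccacgcaggg
The 3 members with separate groups, Slfn1, Slfn4 and Slfn8, hold no match in 3' UTRs of 597, 922 and 1706 bases. The median 3' UTR of the tested genes was 1261 bases long, and a shorter one has less room for a match. The 2 members with a match had log2 fold changes of -0.22 and -0.30. Whether miR-19 acts on any member directly was not tested.

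The interferon pathway was read from 50 listed genes, of which 44 were tested. Type I interferon acts through the receptors Ifnar1 and Ifnar2, the kinases Jak1 and Tyk2, and transcription factors, among them STAT2 and IRF9, that switch on target genes. Of the 44 genes, 24 were lower and 0 higher at an unadjusted p under 0.05 in limma, where 2.63% of all genes tested were lower at that threshold, and none passed after adjustment over all genes. Their median log2 fold change was -0.52. The pathway genes at that threshold were targets, transcription factors and 1 inhibitor.

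Among the ligands, 1 of 7 was tested, Ifng, with between 0.93 and 2.06 normalized counts in every heart. Ifnb1 was listed at 0 in 5 hearts and had 5.86 normalized counts in control replicate 2, too few to compare. None of the 6 receptor genes and none of the 3 kinases had an unadjusted p under 0.05. The median log2 fold change was -0.02 for the receptors and -0.10 for the kinases.

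Among the transcription factors, Stat2, Irf7 and Irf9 were lower at an unadjusted p under 0.05, and Irf1, Irf3, Irf5 and Irf8 were not. Stat2 had 2027 ± 177 normalized counts after control mimic and 1354 ± 223 after miR-19a/19b mimics (SD, n = 3), a log2 fold change of -0.59. Irf7, which amplifies the interferon response, had 5031 ± 936 and 3021 ± 526, a log2 fold change of -0.73. The log2 fold change of Irf9 was -0.33, and those of Irf1, Irf3, Irf5 and Irf8 lay between -0.20 and 0.07. Among the 6 inhibitors, Usp18, which blocks the type I receptor, had a log2 fold change of -0.84, and the others lay between -0.27 and 0.04.

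Of 20 interferon targets, 19 were lower at the unadjusted threshold, the exception being Gbp2, and the list had a median log2 fold change of -0.73. Their log2 fold changes ran from -1.18 for Ifi44 to -0.34 for Gbp2. Slfn4 had a lower log2 fold change than all 20 of these targets, Slfn1 than 17 and Slfn8 than 15. In contrast, the log2 fold changes of Slfn3, Slfn5 and Slfn9 were nearer to 0 than those of all 20, and that of Slfn2 than those of 19. The Schlafen members thus stood at both ends of the range of the targets. Against the control mean, the mean of the 20 targets was -1.16 on the log2 scale in miR-19a/19b mimic replicate 1, -0.50 in replicate 2 and -0.61 in replicate 3. Slfn1 was at -1.83, -0.59 and -0.43 in the same hearts. It thus lay above the mean of the targets in replicate 3, and its place among them rests largely on replicate 1. Set against the mean of the 20 targets within each heart, Slfn4 was lower by 0.58 (standard error 0.25) on the log2 scale in miR-19a/19b mimic hearts, without overlap of the groups. Slfn5 was higher by 0.53 (standard error 0.19) and Slfn3 by 0.42 (standard error 0.15), also without overlap, while Slfn1, Slfn2, Slfn8 and Slfn9 overlapped. Adjusted over the 7 members, the smallest p of the exact permutation test was 0.233. That test cannot go below 0.1 before adjustment with 3 hearts against 3, so it could not have passed any member.

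**Figure D3:**
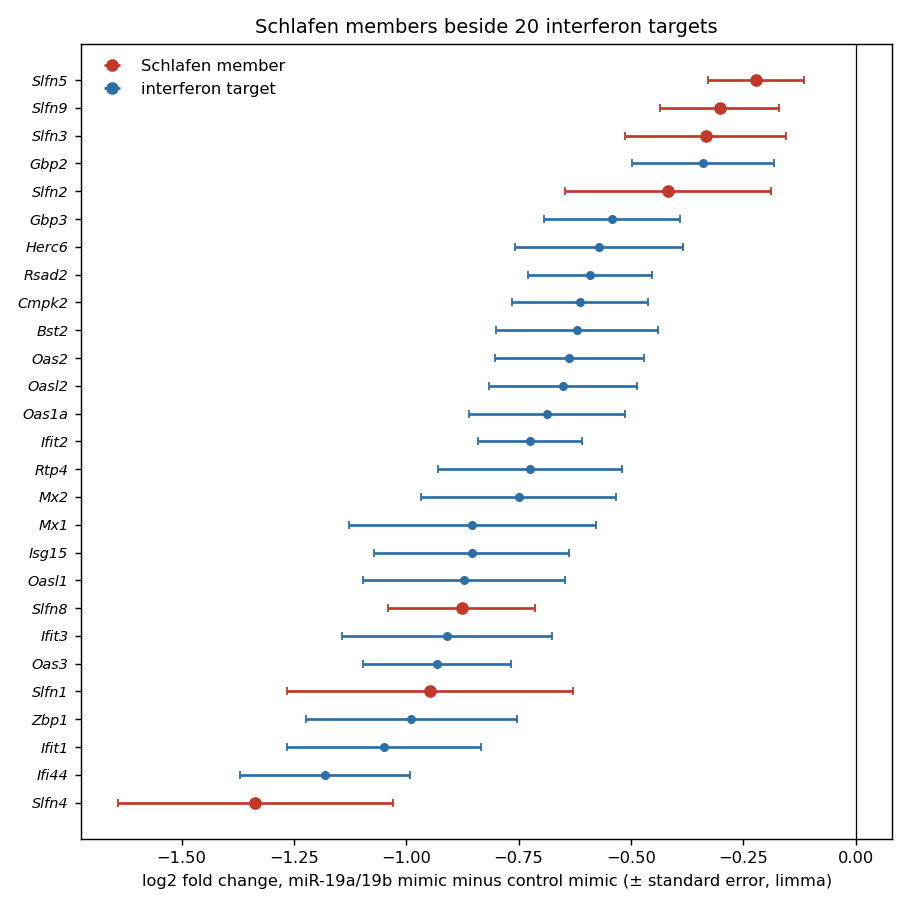
Log2 fold change, miR-19a/19b mimic minus control mimic (horizontal axis), with its standard error from limma, for the 7 Schlafen members (red) and 20 interferon targets (blue), in order. Slfn4 at -1.34 is the lowest, and Slfn5, Slfn9 and Slfn3 are nearest to 0.

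The genes whose pattern over the 6 hearts was closest to the family's were sought among 12730 genes whose mean was 50 normalized counts or more. Each gene's log2 values were centred on their mean, and the measure was the root mean square difference from the mean centred profile of the members. The 8 closest were Oasl2 (0.04), Parp14, Herc6, Trim30a, Oas1a, Stat2, Pyhin1 and Rnf213 (0.08), where the median gene was at 0.41. Oasl2 had 2541, 3032 and 2962 normalized counts after control mimic and 1384, 2065 and 2060 after miR-19a/19b mimics. As in the family's mean profile, its lowest value was in miR-19a/19b mimic replicate 1 and its highest in control replicate 2.

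Genes at the same place in the genome were compared next. Within 500 kb of the cluster lie 38 other genes, of which 34 were tested, with a median log2 fold change of -0.05. At an unadjusted p under 0.05 in limma 2 were lower, the chemokine Ccl5 and Wfdc18, and 1 was higher, Fndc8. Ccl5, which attracts T cells, had 107, 129 and 88.8 normalized counts after control mimic and 52.7, 45.4 and 64.0 after miR-19a/19b mimics, a log2 fold change of -0.99 with separate groups. Wfdc18 went from 92.7 ± 3.56 to 61.4 ± 9.27, also with separate groups, and Fndc8 had at most 10.3 normalized counts in any heart. Inside the cluster the pseudogenes Gm11424 and Gm11425 and the microRNA gene Mir7679 were tested, and none had an unadjusted p under 0.05. Another gene there, Gm27598, was below the mean of 1. The flanking genes Unc45b, a myosin chaperone, and Ap2b1, an adaptor of endocytosis, had log2 fold changes of -0.12 and -0.09.

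**Figure D4:**
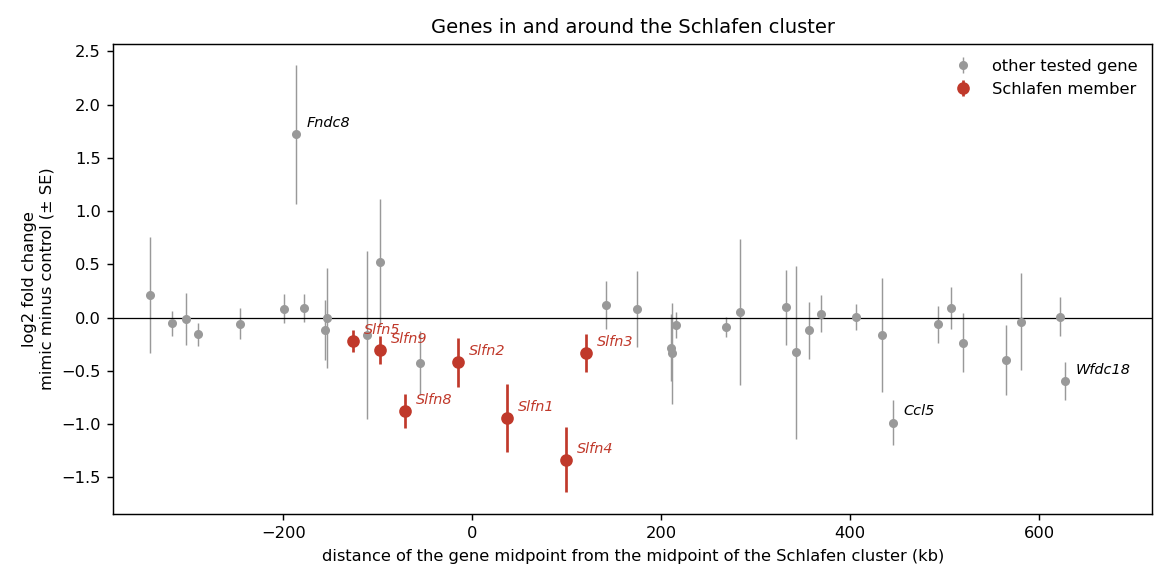
Log2 fold change with its standard error (vertical axis) against the distance of each gene's midpoint from the middle of the Schlafen cluster in kb (horizontal axis), for the 7 members (red) and 34 other tested genes (grey). All members lie below 0, with Slfn8, Slfn1 and Slfn4 lowest, while the grey points scatter around 0 apart from Ccl5, Wfdc18 and Fndc8, which has few reads.

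Cell type markers were read beside these values, since in bulk tissue fewer cells of a type and less RNA per cell cannot be told apart. The 8 pan-leukocyte genes summed to between 23810 and 29880 normalized counts after control mimic and between 18670 and 29570 after miR-19a/19b mimics. None of the 8 had an unadjusted p under 0.05, and all 8 had a lower mean. The sum overlapped because of miR-19a/19b mimic replicate 3, and the other 2 miR-19a/19b mimic hearts lay below every control heart. With the pan-leukocyte mean as a covariate in limma, the log2 fold change was -1.07 for Slfn4, -0.68 for Slfn8, -0.56 for Slfn1 and -0.12 for Slfn2. The adjusted p was then 0.0619 for Slfn4 and 0.0169 for Slfn8, in a fit where 191 genes were lower and 22 higher after adjustment. The part of leukocyte number in these values was not tested.

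The 6 monocyte genes summed to between 8556 and 9777 normalized counts after control mimic and between 6081 and 8224 after miR-19a/19b mimics, without overlap. Of these genes Ly6c2, Ccr2, Plac8 and Ms4a4c were lower at an unadjusted p under 0.05 (2.63% of all genes tested were), with Ly6c2, a surface marker of inflammatory monocytes, at a log2 fold change of -1.77. Chil3 (log2 fold change -0.35) and F13a1 (0.16) overlapped between the groups. The 6 NK cell genes summed to 178 to 346 and to 100 to 161, also without overlap. Of the 6, 4 were lower at that threshold (Nkg7, Gzma, Klrk1 and Eomes). Ncr1 (log2 fold change -0.73) and Klrb1c (-0.32) were not, and these genes and Eomes overlapped between the groups. The sums of both lists and 4 genes of each thus moved with the Schlafen genes, and their part in the result was not tested.

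Sums of the other leukocyte lists overlapped between the groups. They ran from 40940 to 48030 after control mimic and from 34710 to 48850 after miR-19a/19b mimics for 8 macrophage genes, from 1525 to 1838 and from 736 to 2389 for 6 neutrophil genes, and from 284 to 323 and from 225 to 386 for 6 B cell genes. The 12 T cell genes ran from 2219 to 2396 and from 2005 to 2344, most of it from Thy1, which other cells express as well. The overlap of this sum therefore says little about the other T cell genes. Of the 12, 10 had a negative log2 fold change, with a median of -0.39 over the list. In 3 of them (Cd3e, Cd8a and Lck) every miR-19a/19b mimic heart lay below every control heart. Their part in the result was not tested. At an unadjusted p under 0.05, the T cell genes Cd8a and Lck, the neutrophil gene Retnlg (log2 fold change -1.52) and the cardiomyocyte gene Nppa (-0.94) were lower, and the macrophage gene Cd163 (0.61) was higher. The groups did not overlap for Cd8a, Lck, Retnlg and Nppa, and they overlapped for Cd163. Ly6g, the defining neutrophil gene, had at most 3.09 normalized counts and was listed at 0 in 2 hearts. Cardiomyocyte, fibroblast and endothelial sums overlapped too, and the cardiomyocyte sum was highest in miR-19a/19b mimic replicate 1 (796800) and lowest in replicate 3 (271000).

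Over 15 alternatives, 6 of them with 1 heart left out, all 105 log2 fold changes of the members were negative. The alternatives reuse the same hearts and are not independent. The other filters and the replicate block leave each limma fold change as it was, so their signs were fixed in advance. An unadjusted p under 0.05 was found for Slfn4 and Slfn8 in 15 of 15 and for Slfn1 in 14 (it was 0.0591 without control replicate 2), but for Slfn9 in 6, for Slfn2 and Slfn5 in 1 each and for Slfn3 in 0.

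**Figure D5:**
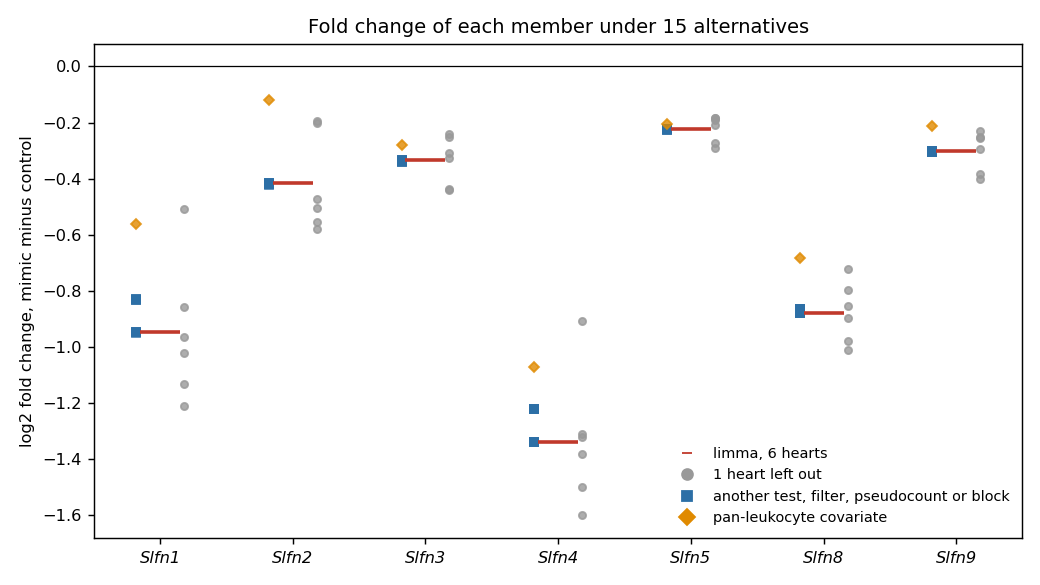
Log2 fold change (vertical axis) of each Schlafen member with all 6 hearts in limma (red line), with 1 heart left out (grey), with another test, filter, pseudocount or block (blue) and with the pan-leukocyte covariate (orange). Every value is below 0, and those of Slfn4 run from -1.60 to -0.91.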

How the data were processed

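RNA-seq was made from poly(A) RNA of 6 mouse hearts. The authors removed adapter and low-quality reads, aligned the pairs of 150-base reads (STAR) and counted them for each gene (HTSeq). The deposited signal is each gene's count divided by 1 size factor per library. Dividing by what 1 read is worth gave whole reads for 100% of values in every library (within 0.01 read). On these recovered reads DESeq2 placed 28 genes lower and 1 higher at an adjusted p under 0.05, edgeR's exact test 28 and 2, and edgeR's quasi-likelihood test 0 and 0. The deposited gene lengths and positions were used as given. The submitters' processing notes list STAR 2.5.1b, HTSeq 0.6.0, DESeq2 1.10.1 and the build mm9, whereas all 7 members lie on chromosome 11 as in GENCODE M21 (GRCm38), 4 of them with the same start and end. Coordinates are therefore given as GRCm38. The fold changes, p-values and the list of dysregulated genes that the authors deposited were not used.

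Groups were compared with limma 3.58.1 in R 4.3.3 (trended prior, log2(normalized count + 1), genes with a mean of at least 1), with Benjamini and Hochberg adjustment over 21126 genes. The study's methods name edgeR, which needs counts. EdgeR 4.0.16 and DESeq2 1.42.0 on recovered reads were alternatives, with other filters (none, or a mean of at least 10), a pseudocount of 0.1, RLE factors, a replicate block, a pan-leukocyte covariate and each heart left out. The fit was tested on simulated data. Depth limits the precision of the members with few reads, and p-values measure the spread between 3 hearts per group. Members, lists and the rule for named genes were chosen with earlier results of these data known. The genes named are every member and relative, the interferon transcription factors (1 item is not reported here), other pathway genes and neighbours with an unadjusted p under 0.05, neighbours inside the cluster and the 8 genes of closest pattern. The genes Ifnb1, Gbp2, Unc45b, Ap2b1 and the cell type markers named are outside it, and their values were known when they were chosen.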

Additional observations from a re-analysis of the deposited data

How the results depend on the processing

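The number of genes at an adjusted p under 0.05, 0 lower and 0 higher in limma, changed to 28 and 1 in DESeq2, to 28 and 2 in the exact test of edgeR, and to 191 and 22 when the pan-leukocyte covariate was added. With 1 heart left out it ran from 0 to 154 lower and from 0 to 361 higher, both upper values coming from the fit that left out miR-19a/19b mimic replicate 3. Schlafen members at that threshold, 0 in limma, were 2 with DESeq2, 2 with the exact test, 1 with the covariate and from 0 to 3 with 1 heart left out, 3 (Slfn1, Slfn4 and Slfn8) without miR-19a/19b mimic replicate 3. Members lower at the unadjusted threshold, 4 in limma, ran from 2 (without control replicate 2) to 5 with 1 heart left out. Neighbours at that threshold, 3 in limma, were 2 with DESeq2, with a mean of at least 10 and with a pseudocount of 0.1, 8 with the covariate, and from 2 to 6 with 1 heart left out. For all of these the cause was not tested. Interferon pathway genes ran from 22 to 31 over all alternatives, against 24 in limma. All genes lower at that threshold, 555 in limma, ran from 372 to 1567, with 1567 under the covariate and 1293 when miR-19a/19b mimic replicate 3 was left out, the fits that gave the highest counts of neighbours (8 and 6) and, for the latter, of pathway genes (31).

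Hearts with the same replicate number showed no likeness (correlations of same-numbered deviations from -0.12 to -0.01). Between hearts of different numbers the correlations ran from -0.10 to 0.12. With 3 hearts per group these values cannot decide whether hearts of the same number share a batch. With the replicate block, 0 genes were lower at an adjusted p under 0.05. At the unadjusted threshold 434 genes were lower with the block, 3 of them members. Slfn3 had the fewest reads, 72 to 128 per heart, so depth weighs most on it. Its standard error in limma (0.18) was still smaller than those of Slfn1 (0.32), Slfn4 (0.31) and Slfn2 (0.23). Those of Slfn5, Slfn8 and Slfn9 were smaller again.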

Other observations

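Schlafen genes are known for holding lymphocytes at rest, so 10 other genes of lymphocyte quiescence were read beside them (Klf2, Foxo1, Foxp1, Tob1, Btg1, Btg2, Tsc1, Vsir, Klf4 and Runx1). Their normalized counts summed to between 14090 and 15940 in control mimic hearts and between 14550 and 16050 in miR-19a/19b mimic hearts. The median log2 fold change was -0.02, with 0 genes lower and 1 higher at an unadjusted p under 0.05 in limma. In whole ventricular tissue these counts can come from any cell type, so they say little about lymphocytes.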
